A study of Apostichopus japonicus with 3 samples.

Results

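The cytosolic chaperonin, also called TRiC or CCT, is a barrel of stacked rings, each ring built from 8 related but different subunits named alpha to theta. It takes up unfolded proteins, above all freshly made actin and tubulin, and folds them inside its cavity with energy from ATP. Its cofactor prefoldin hands it these clients, and all subunits are needed for a working ring. Chaperonin transcripts were picked by name, as every isotig (assembled transcript of a reference transcriptome) whose best protein match named a chaperonin containing TCP1, a chaperonin subunit or T-complex protein 1. This gave 12 of the 20991 isotigs that had at least 1 read, and they belonged to 5 of the 8 subunits: 2 isotigs each for gamma, delta and epsilon, and 3 each for zeta and theta. No isotig carried a name for alpha, beta or eta, so these 3 subunits were not analysed here.

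The data come from the respiratory tree of the sea cucumber Apostichopus japonicus, the branched organ in the body cavity through which the animal takes up oxygen. There was 1 poly(A) RNA library for each of 3 stages: non-aestivation (NA), deep aestivation (DA, the full summer dormancy) and arousal from aestivation (AA). The labels give at least 15 individuals per stage, no word on pooling, and no treatment or genotype beyond the stage. The stages have no replicates, no p-value was computed, and every interval below is exact, at 95%, and covers counting error only. The NA, DA and AA libraries held 0.941, 0.887 and 0.963 M uniquely assigned reads, and 10896 isotigs with at least 20 reads summed over the 3 libraries were compared. In such whole-organ RNA, fewer cells of a type and less RNA per cell cannot be told apart.

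Chaperonin transcripts were scarcer in DA than in NA, and partly higher again at AA. All 12 isotigs together took 679 reads per M reads (RPM) in NA, with an interval of 627 to 734. Their sum was 209 RPM in DA (179.6 to 241) and 323 RPM in AA (288 to 361). The summed rate was 3.26-fold lower in DA than in NA (2.76 to 3.86), and 1.55-fold higher in AA than in DA (1.29 to 1.87). In AA it was still 2.10-fold lower than in NA (1.83 to 2.41). The 3 intervals of the levels did not overlap, with NA highest and DA lowest. Markers of dividing cells were ordered alike, at 882 RPM in NA, 293 in DA and 402 in AA. So were coelomocyte markers, at 2261, 902 and 1027 RPM, whereas germ cell, muscle and ciliated cell markers were lowest in AA. The part of these cells in the chaperonin values was not tested.

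The names rest on matches in other animals. The best match lay in the sea urchin Strongylocentrotus purpuratus for 7 isotigs, in the acorn worm Saccoglossus kowalevskii for 4 and in the ferret for 1, and the 12 isotigs pointed to 7 different protein entries. The gene ontology terms deposited with the isotigs also come from such matches. All 12 isotigs carried protein binding and a term for adenyl nucleotide binding, 8 carried cellular protein metabolic process and 7 microtubule cytoskeleton. Microtubule cytoskeleton was given to 1.96% of the 2294 compared isotigs with a cellular component term.

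Of the 12 isotigs, 8 passed the minimum of 20 reads, and 4 did not. The 4 below it were isotig07139 (delta, 10 reads over the 3 libraries), isotig29628 (theta, 6 reads), isotig06099 (epsilon, 5 reads) and isotig09052 (zeta, 2 reads). Isotig07139 had 8, 1 and 1 reads in NA, DA and AA, isotig29628 had 3, 1 and 2, isotig06099 had 4, 1 and 0, and isotig09052 had 2, 0 and 0. Together these 4 had 17 reads in NA, 3 in DA and 3 in AA. Isotig09051 (zeta) stood exactly at the minimum, with 20 reads. The minimum was taken over the sum of all 3 libraries, so an isotig rich in a single library could pass through that library. Isotig07138 and isotig09051 would not have passed without their NA reads.

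The gamma subunit, which in yeast lies on the side of the ring that binds ATP weakly, was represented by isotig21115 (716 bases) and isotig12005 (622 bases), both matched to the same acorn worm protein. Isotig21115 had 80 reads in NA, 16 in DA and 25 in AA, or 119, 25.2 and 36.3 RPKM (reads per kilobase of isotig per M reads). Isotig12005 had 53, 11 and 16 reads, or 90.5, 19.9 and 26.7 RPKM. Both isotigs were high in NA and low in the later stages. Isotig21115 was 4.71-fold lower in DA than in NA (2.73 to 8.64) and isotig12005 4.54-fold lower (2.34 to 9.64). In AA the summed gamma reads were still 3.32-fold lower than in NA (2.32 to 4.83), and 1.40 times those of DA, with an interval of 0.840 to 2.36 that holds 1.

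The theta subunit, a neighbour of zeta on the same side of the ring, had the most reads together with epsilon. Isotig04136 (1452 bases) had 126 reads in NA, 28 in DA and 76 in AA, which is 92.2, 21.7 and 54.4 RPKM. Isotig18284 (929 bases), with its best match in the same sea urchin protein, had 65, 26 and 35 reads, which is 74.3, 31.5 and 39.1 RPKM. Both were lowest in DA, but only isotig04136 moved by more than 2-fold at AA. Its rate was 2.50-fold higher in AA than in DA (1.60 to 4.01), against a ratio of 1.24 for isotig18284 (0.725 to 2.15). The ratio of these ratios was 2.01, with an interval of 0.978 to 4.14, so a difference between both theta isotigs was not detectable at this depth. The 3 theta isotigs summed had 55 reads in DA, against 194 in NA, a 3.32-fold lower rate (2.45 to 4.57). Their rate in AA was 1.89-fold that of DA (1.36 to 2.66).

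The epsilon subunit is among those that bind ATP tightly in yeast, and a mutation in it causes a sensory neuropathy in people. Its isotig06097 (3373 bases) was the chaperonin isotig with most reads, 189 in NA, 63 in DA and 94 in AA, or 59.5, 21.1 and 28.9 RPKM. It was 2.83-fold lower in DA than in NA (2.12 to 3.82). In AA its rate was 1.37 times that of DA (0.988 to 1.92), and 2.06-fold lower than in NA (1.60 to 2.66).

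The zeta subunit was carried mainly by isotig18501 (911 bases), with 73 reads in NA, 31 in DA and 40 in AA, or 85.1, 38.4 and 45.6 RPKM. Its rate was 2.22-fold lower in DA than in NA (1.44 to 3.50), the smallest difference among the isotigs called. Isotig09051, named as a subunit 6A-like protein, had 9, 4 and 7 reads in the same order. Its 2.12-fold lower rate in DA had an interval of 0.592 to 9.42, so no difference was detectable at this depth, and on the scale of log2(RPKM + 0.5) used for calls it differed by -0.97.

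The delta subunit, which in yeast also binds ATP tightly and in mammals touches actin during folding, had few reads. Isotig07138 (2892 bases) had 27 reads in NA, 3 in DA and 15 in AA, or 9.92, 1.17 and 5.39 RPKM. DA was low against both other stages. The rate in DA was 8.48-fold lower than in NA (2.61 to 43.7), and the rate in AA was 4.61-fold that of DA (1.30 to 24.8). These wide intervals rest on the 3 reads in DA. AA and NA could not be separated for this isotig, with a 1.84-fold lower rate in AA and an interval of 0.945 to 3.72.

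**Figure D1:**
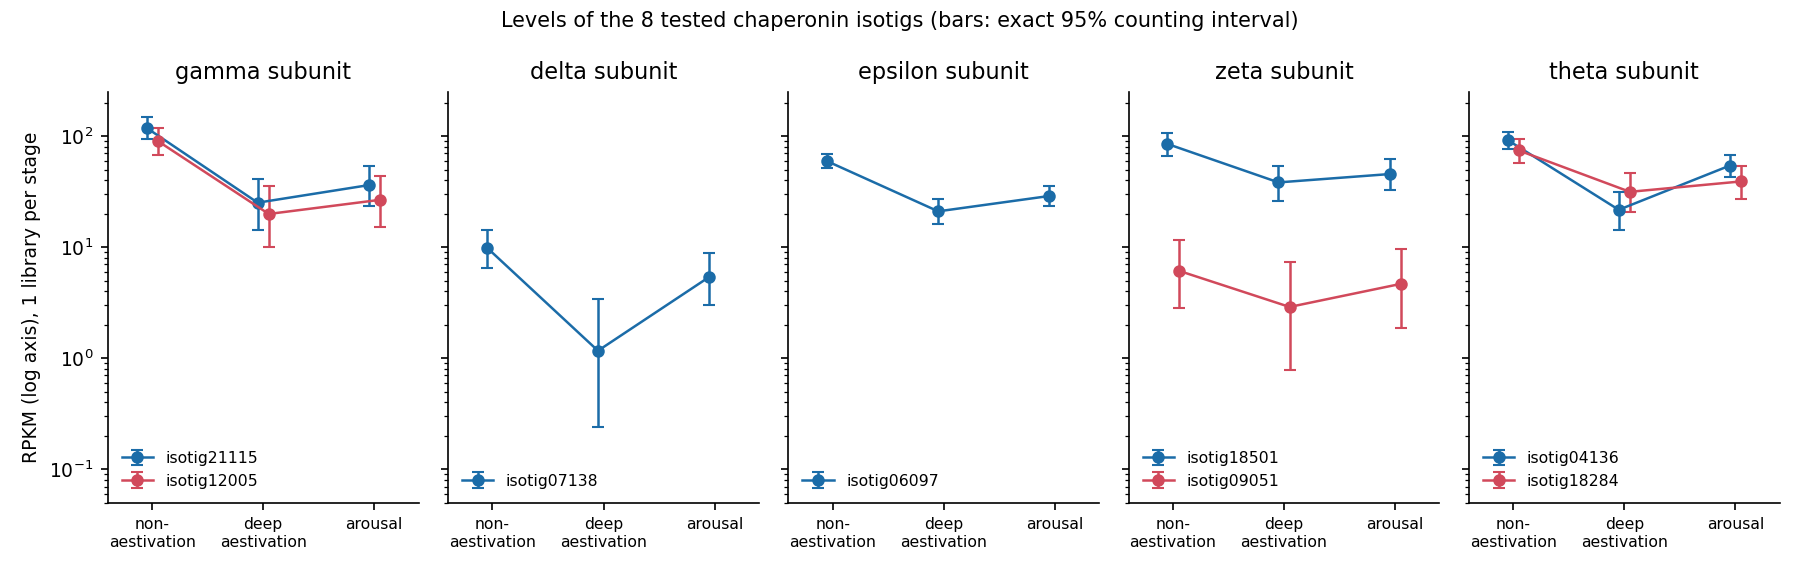
RPKM on a log axis for the 8 compared chaperonin isotigs, 1 panel per subunit, with the 3 stages on the horizontal axis and bars for the exact 95% counting interval of a single library. Every isotig was lowest in DA, for example isotig21115 at 25.2 RPKM and isotig07138 at 1.17 RPKM.

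Calls of lower or higher needed a difference of at least 1 in log2(RPKM + 0.5), that is 2-fold. In DA against NA, 7 of the 8 compared chaperonin isotigs were lower and 0 were higher, and for each of the 7 the counting interval left out equal rates. Centring on the median of isotigs with a protein match, chosen after seeing the data, left 5 of the 8 lower, with isotig18284 at -0.87 and isotig18501 at -0.79. Among all 10896 isotigs, 18.6% were called lower and 13.1% higher in this comparison, and 15.0% were lower with an interval that left out equal rates. With the centring, 11.8% of all were lower and 21.3% higher. The share called lower was 24.2% among the 5686 isotigs with a protein match, and 19.5% among isotigs with between 20 and 346 summed reads, the range of the chaperonin isotigs. The median log2 difference of the 8 isotigs was -1.77, beside -0.12 over all compared isotigs and -0.36 over those with a protein match. The single values reached from -2.64 for isotig07138 to -0.97 for isotig09051, and both isotigs would have missed the read minimum without their NA reads.

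In AA against DA, 2 of the 8 were higher, isotig04136 (theta) and isotig07138 (delta), and 0 were lower. Of all compared isotigs, 8.06% were called higher and 8.93% lower here. The share higher was 7.63% among isotigs with a protein match, and 4.86% were higher with an interval that left out equal rates, as both chaperonin isotigs were. The other 6 stood between 0.25 and 0.61 above DA on the log2 scale, and the median of the 8 was 0.48, beside 0.00 for all compared isotigs. The 2 comparisons share the DA library, so a low value in it enters both.

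In AA against NA, 3 of the 8 were lower and 0 higher, beside 18.8% lower and 12.5% higher among all compared isotigs. The share lower was 25.6% among isotigs with a protein match, and 15.4% were lower with an interval that left out equal rates, as all 3 chaperonin isotigs were. The 3 were both gamma isotigs, at -1.70 (isotig21115) and -1.74 (isotig12005), and the epsilon isotig06097 at -1.03. The call of isotig06097 was lost with either library scaling based on the bulk of isotigs, at -0.91 with both TMM and median-of-ratios factors. The median of the 8 was -0.91, beside -0.13 over all compared isotigs and -0.40 over those with a protein match.

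**Figure D2:**
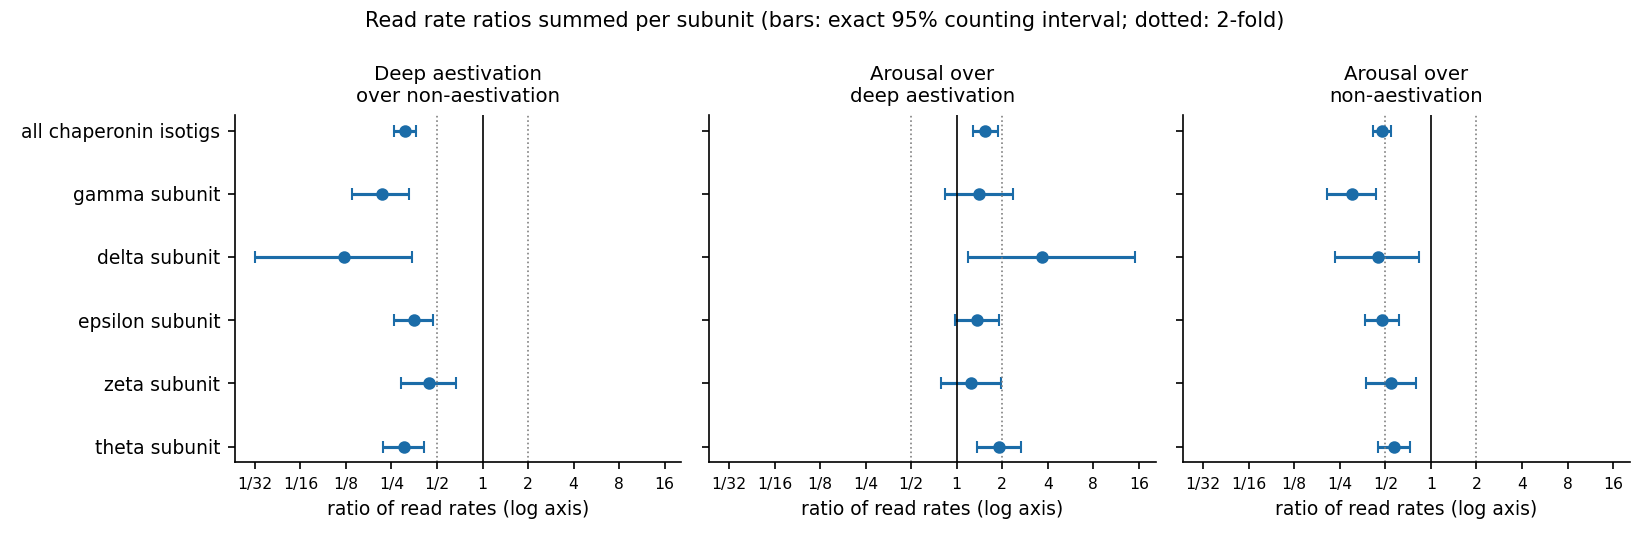
Ratio of read rates on a log axis for all chaperonin isotigs and for each subunit summed, in 3 comparisons, with exact 95% counting intervals and dotted lines at 2-fold. In DA over NA all 5 subunits lie below 1, from 0.121 for delta to 0.442 for zeta. In AA over DA the interval for all chaperonin isotigs leaves out 1, and among the subunits those of delta and theta alone do.

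The mixture of subunits within the chaperonin reads was compared next, each subunit against the others. Epsilon made up 30.2% of the chaperonin reads in NA, 34.6% in DA and 30.2% in AA. Theta made up 30.4%, 29.7% and 36.3%, and zeta 13.1%, 18.9% and 15.1%. Gamma made up 20.8% in NA (interval 17.7 to 24.2), 14.6% in DA (9.84 to 20.5) and 13.2% in AA (9.63 to 17.5). Delta held 5.48%, 2.16% and 5.14% of the reads. Of 15 comparisons of a subunit with the rest of the chaperonin, 1 had an interval that left out 1. This was gamma in AA against NA, whose ratio was 0.578 times that of the other chaperonin isotigs (0.385 to 0.854). The intervals are not adjusted for the 15 comparisons.

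**Figure D3:**
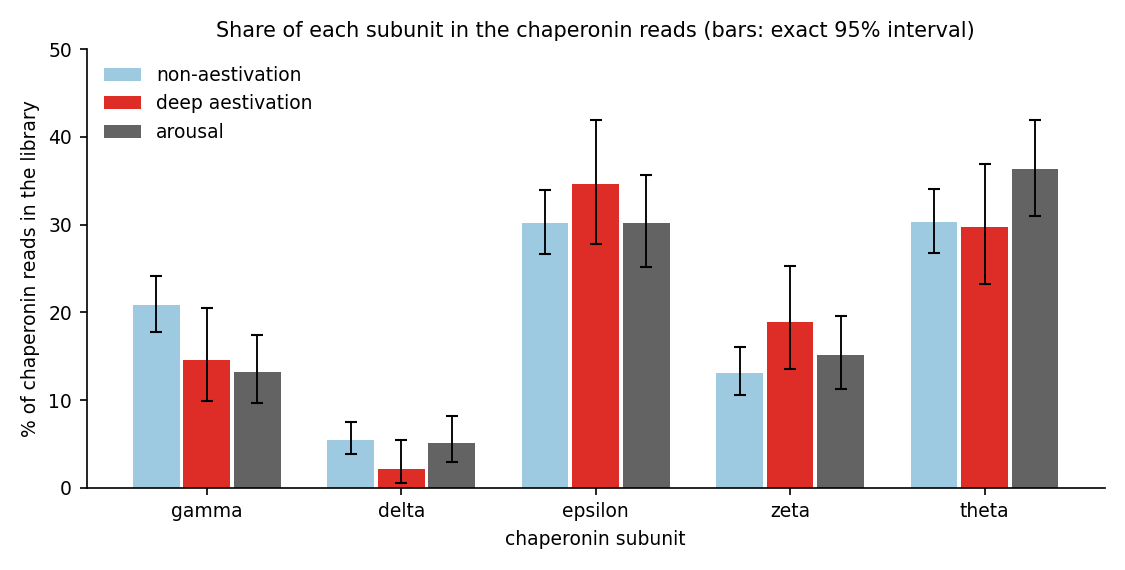
Percent of the chaperonin reads of a library that fell on each subunit, with exact 95% binomial intervals, for 639 chaperonin reads in NA, 185 in DA and 311 in AA. Gamma stands at 20.8% in NA and at 13.2% in AA, and the intervals of the other subunits overlap between stages.

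Whole-isotig RPKM spreads the reads over all bases of an isotig, and the share of bases with reads differed widely between the chaperonin isotigs. Reads had been counted only where they matched a single position, and several chaperonin isotigs come in near-equal sets: isotig07138 and isotig07139 (delta) were both 2892 bases long with the same best match, and isotig09051 and isotig09052 (zeta), of 1555 and 1404 bases, also shared theirs. In NA, reads covered 12% of isotig07138, 9.27% of isotig07139, 13.7% of isotig09051 and 6.27% of isotig09052. Coverage was 44.3% for isotig06097 and 75.6% for isotig04136, and between 84.0% and 91.7% for isotig18501, isotig21115, isotig12005 and isotig18284. Covered percent also follows read number, and for isotig07138 it was 12% at 27 reads in NA, 4.11% at 3 reads in DA and 9.54% at 15 reads in AA. Whether few bases could take unique reads was not tested.

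Set against the bases that had reads in the library of widest coverage, the level of isotig07138 in NA was 82.7 reads per covered kilobase per M reads, in place of 9.92 RPKM. On that scale isotig06097 stood at 134, isotig21115 at 133, isotig04136 at 122, isotig18501 and isotig12005 both at 101, isotig18284 at 81.0 and isotig09051 at 44.9. The 8 compared isotigs thus ran from 44.9 to 134 on this scale, and from 6.15 for isotig09051 to 119 for isotig21115 in whole-isotig RPKM. This scale was chosen after the values were seen. It multiplies an isotig's 3 levels by a single factor, so it leaves all ratios between stages as they are, and covered length itself grows with read number, so levels of isotigs with few reads may be overstated.

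**Figure D4:**
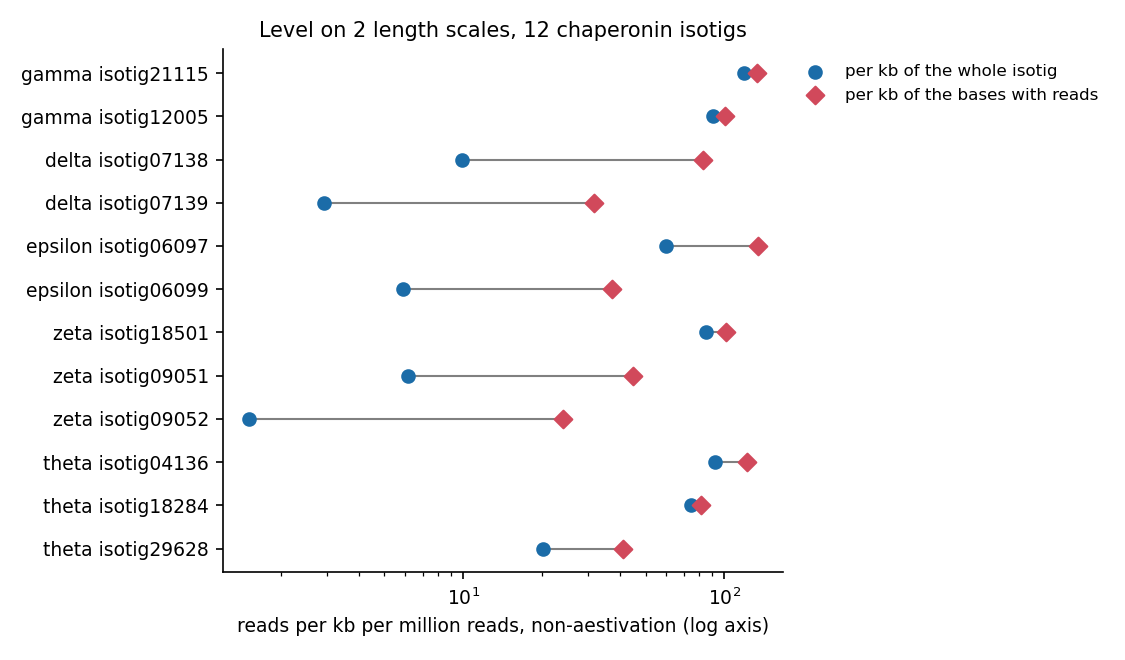
Level of the 12 chaperonin isotigs in NA on a log axis, per kilobase of the whole isotig (circles) and per kilobase of the bases with reads (diamonds). For delta isotig07138 the markers stand at 9.92 and 82.7, and for gamma isotig21115 they stand at 119 and 133.

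In rank by whole-isotig RPKM, 6 of the 8 compared chaperonin isotigs stood in the upper part of the NA profile, and the delta isotig07138 and the zeta isotig09051 stood near its bottom. Isotig21115 exceeded 89.1% of compared isotigs in RPKM in NA, 48.9% in DA and 62.0% in AA. Isotig04136 exceeded 85.2%, 43.4% and 73.7%, and isotig06097 75.2%, 42.2% and 54.6%. Isotig07138 exceeded 13.4% of compared isotigs in NA, 0.624% in DA and 7.16% in AA, and isotig09051 exceeded 5.29%, 2.23% and 5.45%.

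One further isotig had a related name outside the rule. Isotig27196 (422 bases) was called similar to chaperonin isoform 1 of the sea urchin, a name that does not say whether the cytosolic or the mitochondrial chaperonin is meant, and it was picked after its values were seen. It had 43 reads in NA, 15 in DA and 10 in AA, or 108, 40.1 and 24.6 RPKM. Its rate was 2.70-fold lower in DA than in NA (1.47 to 5.24), and the AA rate was 0.614 times that of DA (0.247 to 1.46).

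Among the chaperonin's partners, prefoldin 5 (isotig13788), a subunit of the cofactor that delivers actin and tubulin, had 62 reads in NA, 15 in DA and 30 in AA. It was the only 1 of 3 prefoldin isotigs that passed the minimum, and it was called lower in DA and in AA, each against NA. Of all compared isotigs, 18.6% and 18.8% were called lower in these comparisons. The AA call of isotig13788 stood at -1.06 on the log2 scale. Its distance to the 2-fold line was smaller than the 0.11 by which TMM factors moved the median of all compared isotigs there. The 3 prefoldin isotigs summed were 3.88-fold lower in DA than in NA (2.26 to 7.03) and 1.84-fold higher in AA than in DA (interval 1.0 to 3.52). Tubulin folding cofactor A (isotig13572), which takes over beta tubulin released from the chaperonin, had 417, 153 and 267 reads in the 3 stages and was called lower in DA than in NA, at -1.36 on the log2 scale. Of the other 2 tubulin cofactor isotigs, 1 named cofactor E (isotig23803) was called higher in that comparison, at 11 reads in DA and 4 in NA. Isotig23803 would have missed the read minimum without its DA reads, and the interval of its ratio, 0.865 to 12.6, holds 1. The other isotig was within 2-fold. Among all compared isotigs, 18.6% were called lower and 13.1% higher in DA against NA. Patterns for phosducin-like cofactors matched 0 isotigs.

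Counts for the chaperonin's clients, and for the other lists below, in DA against NA are to be read beside the 18.6% called lower and 13.1% called higher among all compared isotigs. Of 8 compared tubulin isotigs, 2 were lower and 0 higher in DA than in NA, with a median log2 difference of -0.52. The summed rate of the tubulin list was 0.913 times that of NA (0.873 to 0.954). It was 0.987 times with TMM factors and 1.17 times after centring on the median of isotigs with protein names, both outside that interval. The largest called difference was that of an alpha tubulin (isotig18082), with 11 reads in DA against 158 in NA, while the tubulin with most reads, an alpha-1 chain (isotig01675), stood at 746 RPKM in DA and 453 RPKM in NA. Of 6 compared actin isotigs, 1 was lower and 0 higher with a median of -0.15. The actin sum was 1.21 times that of NA (1.14 to 1.29), or 1.31 times with TMM factors and 1.55 times after the centring. The lower actin isotig was isotig17429, at 141 RPKM in DA and 304 RPKM in NA, and the actin with most reads, isotig02881, stood at 681 and 387 RPKM.

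Proteins with beta-propeller folds, another class of clients, gave 1 lower and 0 higher of 3. The lower one was G protein beta 5 (isotig09731), with 4 reads in DA and 21 in NA, and the member with most reads, named G protein beta polypeptide 2-like 1 (isotig14767), stood at 1344 and 1898 RPKM. The summed rate of the 3, in which isotig14767 weighs most, was 1.41-fold lower in DA than in NA (1.34 to 1.48). It was 1.30-fold lower with TMM factors and 1.10-fold lower after centring on isotigs with a protein match, both outside that interval.

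Other chaperone families were listed for comparison, and differences between families were not tested. Of 9 compared isotigs in the Hsp70 list, 3 were lower and 0 higher in DA than in NA, with a median of -0.96, and 0 were called higher or lower between AA and DA. The list's most read member was the endoplasmic reticulum form, heat shock 70 kDa protein 5-like (isotig13452), with 400 reads in DA against 845 in NA. Its largest called difference was that of an Hsp70/Hsp90 organizing protein (isotig19187), with 9 reads against 36, which also entered the Hsp90 list. The Hsp70 sum in AA was 0.854 times that of DA (0.773 to 0.944), while the median log2 difference of its 9 compared isotigs was 0.015. The Hsp90 sum in AA was 1.503 times that of DA (0.823 to 2.82). The Hsp40 sum was 1.17 times that of DA (0.998 to 1.36), beside 1.55 times for the chaperonin. In AA against DA, 1 of 2 Hsp90 and 2 of 10 Hsp40 isotigs were called higher, beside 8.06% of all compared isotigs. In AA against NA, 6 of the 9 Hsp70 and 4 of the 10 Hsp40 isotigs were lower and 0 higher, beside 18.8% lower among all compared isotigs and 25.6% among those with a protein match. Of 10 compared Hsp40 isotigs, 3 were lower and 0 higher in DA than in NA, with a median of -0.86, the largest difference being that of DnaJB11 (isotig15164), a co-factor in the endoplasmic reticulum, with 24 reads in DA against 157 in NA. The most read Hsp40 member, isotig14978, had 91 reads in DA against 89 in NA. Of 2 compared isotigs in the Hsp90 list, 1 was lower in DA than in NA, and this was the organizing protein isotig19187. It held 36 of the 51 reads of the Hsp90 list in NA, so the list's values largely follow this co-factor. Patterns for the mitochondrial chaperonin and for heat shock factor matched 0 isotigs.

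**Figure D5:**
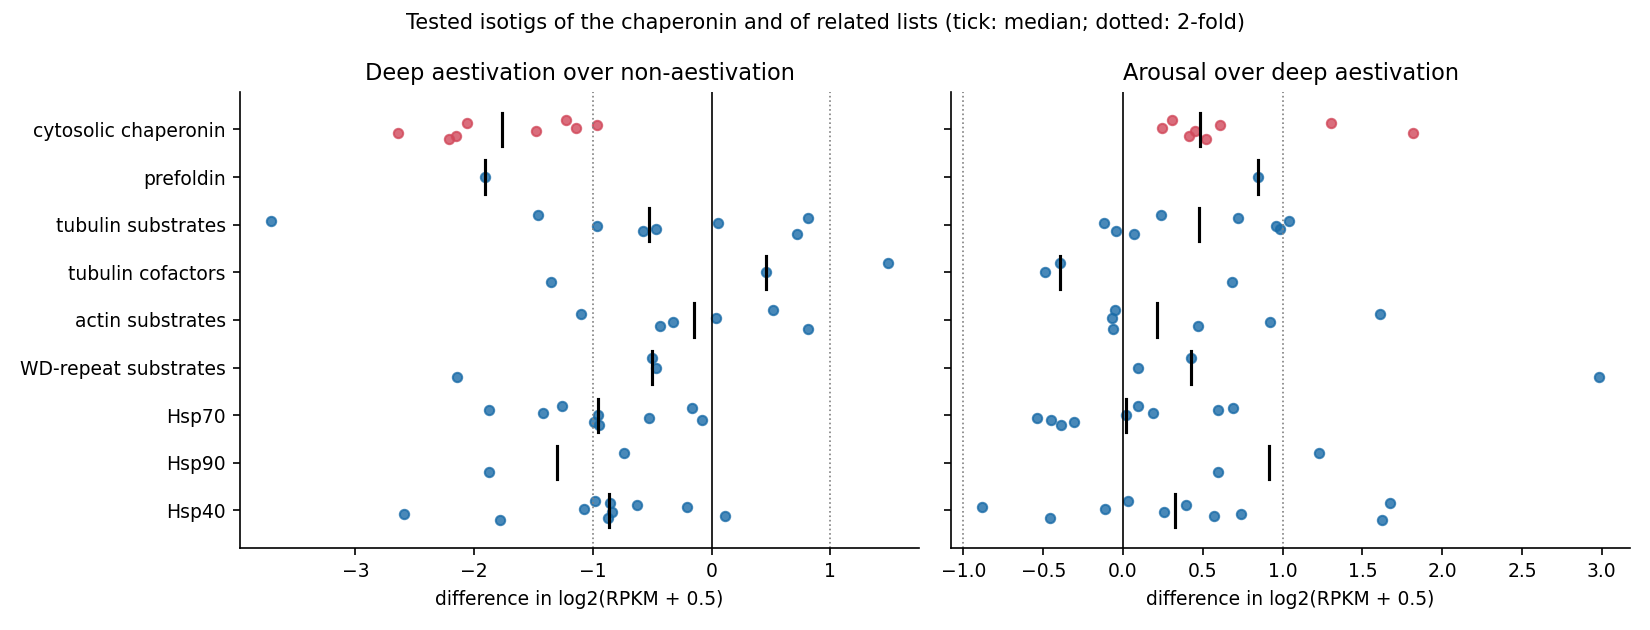
Difference in log2(RPKM + 0.5) of each compared isotig of the chaperonin (top row) and of related lists, for DA over NA and AA over DA, with ticks at the median and dotted lines at 2-fold. In the left panel the 8 chaperonin isotigs lie between -2.64 and -0.97, whereas tubulin and actin isotigs lie on both sides of 0.

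The isotigs with the profile most like the summed chaperonin over the 3 libraries, among 829 named isotigs with at least 200 reads, were retinoblastoma binding protein 4 (isotig19191), a scavenger receptor cysteine-rich protein (isotig14672), the proteasome subunit PSMD3 (isotig14371), glutamate dehydrogenase 1 (isotig13118) and an ATP synthase subunit C3-like protein (isotig07844). Likeness was the Euclidean distance between centred log2(RPKM + 0.5) profiles, which ran from 0.049 to 0.11 for these 5, and from 0.18 for isotig06097 to 0.91 for isotig07138 among the chaperonin isotigs themselves. Likeness over 3 libraries is a description only.

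The other marker lists were measured in the same way. The dividing-cell list held 18 isotigs, such as MCM subunits and cyclins, and 1 calcyclin binding protein matched by its name. Of its 16 compared isotigs 14 were called lower in DA than in NA, 7 higher in AA than in DA and 10 lower in AA than in NA, beside 18.6%, 8.06% and 18.8% of all compared isotigs. Germ cell markers (9 isotigs) took 156 RPM in NA, 30.4 in DA and 24.9 in AA, with 4 of the 9 at 0 reads in DA and 3 in AA. The sperm protein bindin (isotig16157) had 61 reads in NA and 0 in both other stages, and patterns for vasa, nanos, piwi, boule and dazl matched 0 isotigs. Coelomocyte markers (29 isotigs, mostly scavenger receptors) took 2261, 902 and 1027 RPM in the same order, and 8 of 19 compared were lower and 2 higher in DA than in NA. Muscle markers (39 isotigs) took 3537, 3120 and 2615 RPM, with 5 of 22 lower and 1 higher. The muscle sum in DA was 0.882 times that of NA, or 0.954 times it with TMM factors and 1.13 times it after centring. Markers of ciliated cells (27 isotigs) took 361, 260.4 and 179.6 RPM, with 0 of 10 lower and 1 higher. The part of these lists in the chaperonin values was not tested. No marker list for the respiratory tree itself was used, so the labelled organ was not checked by markers of its own.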

How the data were processed

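Libraries were made from fragmented poly(A) RNA with random priming, per the labels' protocols. The submitters' processing notes name CASAVA 1.5, and no source used here names an aligner. Per the file headers and the deposited column description, the authors counted reads that aligned to a single position of a published transcriptome assembly, and gave the percent of each isotig covered by these reads. The deposited RPKM values are those counts per kilobase of isotig and per M uniquely assigned reads (matched here within a relative tolerance of 1e-09). Isotigs not listed for a library were set to 0 reads there.

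The members and lists were chosen with earlier results of these data known. List patterns were applied to protein names, with bindin restricted to the whole word after its matches were seen. Each list's most read member and largest called change in DA against NA are named. Ratios of read rates have exact conditional binomial (Clopper-Pearson) intervals, RPKM levels exact Poisson intervals, and ratios of ratios exact conditional odds ratio intervals. Without molecular identifiers, reads are not independent molecules, so intervals cover counting error only. P-values were not computed. Gene symbols of the RefSeq gene table could not be joined to isotigs, so no sequences or positions are given.

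Alternatives were pseudocounts of 0.1 and 1 in place of 0.5, no read minimum or 100 reads, scaling by TMM (edgeR 4.0.16), by median of ratios (DESeq2 1.42.0) or by totals that leave out each library's 10 most abundant isotigs, an interval criterion, sums per subunit and leaving out the most read chaperonin isotig. Centring on isotigs with a protein match and the covered-length scale were chosen after seeing the data. Software was R 4.3.3 and Python 3.11.15 (scipy 1.17.1, pandas 2.3.3, numpy 2.4.6).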

Additional observations from a re-analysis of the deposited data

How the results depend on the processing

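No paired analysis was possible because each stage had 1 library, and for the same reason no replicate could be left out. TMM and median-of-ratios factors moved the median of all compared isotigs by 0.11 and 0.12 on the log2 scale in DA against NA, and by 0.11 and 0.12 in AA against NA. In DA against NA, the count of 7 lower isotigs became 5 of 8 with centring on isotigs with a protein match and 11 of 12 without a read minimum. The 4 isotigs added there have 0 or 1 read in DA, and 27.2% of all isotigs were then lower. The median of -1.77 became -1.48 over the 5 isotigs with at least 100 reads, -1.42 when centred on isotigs with a protein match and -2.06 without isotig06097, and the summed ratio of 0.307 became 0.394 (2.54-fold lower) with that centring. In AA against DA, the count of 2 higher isotigs became 1 with at least 100 reads (isotig07138 was then left out) and 1, delta, among subunits summed. In AA against NA, the count of 3 lower isotigs became 6 of 12 without a read minimum (27.3% of all isotigs), the median of -0.91 became -0.51 with the centring, and the summed ratio of 0.476 became 0.629 (1.59-fold lower). The other 65 of 75 recomputed counts, medians and sums stayed within counting error or within 1.5 times the count, and none reversed. Among 144 recomputed values of single isotigs, 6 crossed the 2-fold line: isotig06097 in AA against NA (-0.91 with TMM, -0.91 with median of ratios, -0.63 with the centring), and in DA against NA isotig09051 (called lower at a pseudocount of 0.1) and, with the centring, isotig18284 and isotig18501. The 185 chaperonin reads in DA limit comparisons between subunits: delta in DA against NA stood at 0.382 times the other subunits' ratio, with an interval of 0.0973 to 1.09.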
